A study of Mus musculus with 47 samples.

Results

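The data set is the hypothalamus of Lep ob/ob mice 42 days after 1 icv injection of FGF1 or of vehicle, measured by bulk RNA-seq with 1 library per mouse. The members are the 5 FGF1 libraries (mice 7 to 11) and the 5 vehicle libraries (mice 12 to 16) that the labels date to Day 42, which is 10 of the 47 bulk libraries of the series. Both groups were male, carried the ob/ob mutation of leptin and were given an age of 11 weeks in the labels, which state the same age on every day of harvest, so that it may not be the age at harvest. The FGF1 group received 3 µg of FGF1 into the lateral ventricle. The vehicle group was labelled non-diabetic and pair-fed to the FGF1 group, whereas the FGF1 label gives no glycaemic state. As a model, every animal of both groups lacked leptin, and the tissue was a punch from a brain slice rather than a single nucleus, so that neighbouring regions could enter it. The question the study put to these libraries was how long the transcriptional response to FGF1 lasts.

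FGF1 is a growth factor that binds FGF receptors on tanycytes, astrocytes and other cells around the ventricles, and signals through the ERK cascade, whose targets include its own feedback inhibitors of the Sprouty, Spred and dual-specificity phosphatase families. In the arcuate nucleus, AgRP/NPY neurons promote feeding and oppose the melanocortin peptides made from Pomc, and both cell types normally respond to leptin. Glial activation after a brain stimulus is commonly read from intermediate filament genes such as Gfap and Vim, and the renewal of oligodendrocytes from genes of committed precursors such as Gpr17 and Bmp4.

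All levels below are CPM, in which the counts of each library are brought to a common size with TMM factors, and ± is the SD over mice. Differences are log2 fold changes of FGF1 against vehicle from the edgeR quasi-likelihood fit of the Day 42 libraries, with ± the standard error where stated. Genes were called DEGs at an adjusted p-value below 0.05 if they also changed by more than 0.5 on the log2 scale. Each mouse gave 1 library, so p-values measure the spread between mice.

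The library totals ran from 19416026 counts (FGF1 mouse 8) to 43934003 (FGF1 mouse 9), and no pair of libraries agreed within sampling noise. The median SD of log2 levels within a group was 0.190 for FGF1 and 0.237 for vehicle on Day 42, against 0.107 to 0.116 in the groups of Day 5. On Day 1 it was 0.208 for FGF1 and 0.218 for vehicle. The first principal component held 40.5% of the variance and set vehicle mouse 16 apart, and the second held 24.3% and set FGF1 mouse 11 apart. Over 2-fold from the median of the other 9 libraries were 449 genes in FGF1 mouse 11, of which 341 were higher, and 355 in vehicle mouse 16, against 15 to 109 in the other libraries. Across 13789 genes the deviation of a library from the median correlated with the GC content of the transcript at Spearman's rho between -0.74 (vehicle mouse 12) and 0.74 (vehicle mouse 16), as a description of libraries that share the reference median. With this trend removed, there were still 0 DEGs by edgeR.

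FGF1 mouse 11 was high in transcripts typical of cortex and choroid plexus, for which it was singled out. Its summed level of 18 forebrain excitatory neuron genes was 4194 CPM, against 1447 to 1790 in the other FGF1 mice and 1448 to 1764 in the vehicle mice, and 13 of the 18 genes were highest in this library. Its summed level of 12 choroid plexus epithelium genes was 2048 CPM, against at most 471 in any other mouse, with 11 of 12 genes highest there. Defining choroid plexus genes such as Ttr were not analysed here. The mean level of this library stood 1.09 log2 units above the median library for 14 striatal projection neuron genes and 1.10 above it for 16 immediate early genes, and 0.72 below it for lateral hypothalamic neuron genes. Hypothalamic markers were present in all 10 libraries: Pmch, the precursor of melanin-concentrating hormone, was lowest in FGF1 mouse 11 at 328 CPM and ran from 521 to 934 CPM in the others.

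Other mice also stood apart for some gene lists. Vehicle mouse 12 stood 1.67 log2 units above the median library for midbrain dopamine neuron genes and vehicle mouse 13 stood 0.89 above it, while FGF1 mice 9, 10 and 11 lay 0.70 to 0.87 below. Thalamic neuron genes were low in FGF1 mouse 9 (-1.73) and vehicle mouse 14 (-1.35), 1 mouse of each group. Vehicle mouse 16 was high in medial habenula neuron genes (1.17) and glucocorticoid targets (0.77) and low in GABA receptors (-0.54). In bulk tissue, fewer cells of a type and less RNA per cell cannot be told apart.

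**Figure D1:**
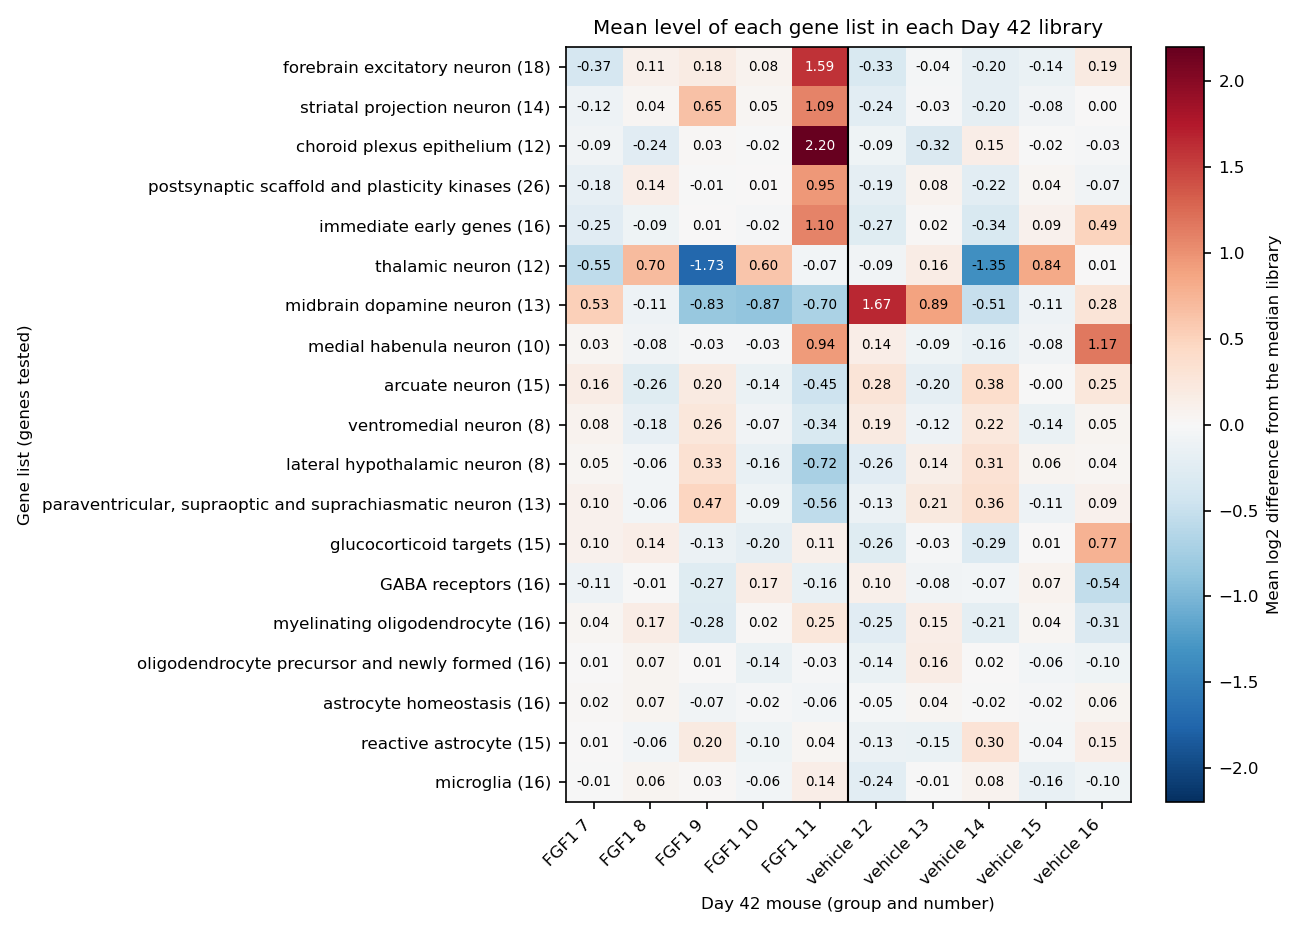
Mean level of 19 gene lists (rows, with the number of genes tested) in each of the 10 Day 42 libraries (columns), as the mean log2 difference from the median library; red is higher and blue lower. FGF1 mouse 11 reaches 2.2 for choroid plexus and 1.59 for forebrain genes, and the astrocyte homeostasis row stays between -0.07 and 0.07.

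No gene passed the test between FGF1 and vehicle mice on Day 42. Of 14005 genes tested, 0 were DEGs in edgeR (0.0%) and 0 in DESeq2, and the smallest adjusted p-value of edgeR was 1.00 after rounding. Without FGF1 mouse 11, 0 of 14012 genes were DEGs by edgeR (0.0%) and 0 by DESeq2. The 95% interval of the fold change lay between -1 and 1 on the log2 scale for 13320 genes, 95.1% of those tested, and between -0.5 and 0.5 for 9589 genes, 68.5%. For genes outside the first of these counts the interval held a 2-fold change in at least 1 direction.

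At an unadjusted p-value under 0.05 by edgeR, 143 genes differed, 1.02% of those tested, where evenly spread p-values would give 5%. Of these, 88 were higher (0.628% of genes tested) and 55 lower (0.393%) in FGF1 mice. DESeq2 gave 215 such genes with all mice and 105 without mouse 11. By edgeR the share was 2.08% without vehicle mouse 16 and 5.45% in a fit of all 47 libraries of the series. Leaving out FGF1 mouse 11 took the higher genes from 88 to 25 (0.178%), while the lower genes stood at 53 (0.378%). 56 genes had an unadjusted p-value under 0.05 in both fits, 19 of them higher and 37 lower. The same shift was seen in size: 46 genes were over 2-fold higher with all 10 mice and 2 without mouse 11, whereas 11 and 12 genes were over 2-fold lower. The 2 genes over 2-fold higher in both fits were Adora2a and Sh3rf2, the second named after its values were seen.

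In 41 genes no FGF1 mouse overlapped a vehicle mouse, 16 higher (0.114% of genes tested) and 25 lower (0.179%). Their differences were small, with a median absolute log2 fold change of 0.22 and 8 of the 41 above 0.5. Without mouse 11 the counts were 25 higher (0.179%) and 42 lower (0.3%).

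The smallest p-value among all genes belonged to Cyp3a13, a cytochrome P450 of the drug-metabolizing CYP3A family (GRCm38 chr5:137892932-137921619, minus strand). Its levels were 4.07, 3.97, 3.24, 3.67 and 2.99 CPM in FGF1 mice 7 to 11 and 6.07, 4.88, 4.39, 5.33 and 5.6 CPM in vehicle mice 12 to 16. All FGF1 mice lay below all vehicle mice, at 3.59 ± 0.465 CPM against 5.26 ± 0.647 CPM (SD, n = 5 in each group). The log2 fold change was -0.55 ± 0.15, with an unadjusted p of 0.0033 by edgeR and 0.00794 by the two-sided exact permutation test, the smallest that 5 against 5 can give. Without mouse 11 it was -0.49 ± 0.15, with an exact p of 0.0159, the smallest for 4 against 5.

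Palb2, the partner of BRCA2 in DNA repair by recombination, was also lower without overlap, at 2.17 ± 0.241 CPM in FGF1 mice and 3.43 ± 0.837 CPM in vehicle mice. The FGF1 mice read 2.55, 1.98, 2.15, 2.21 and 1.94 CPM and the vehicle mice 2.6, 3.2, 2.93, 3.69 and 4.75 CPM, the highest being vehicle mouse 16. Its log2 fold change was -0.66 ± 0.19 with all mice and -0.62 ± 0.20 without mouse 11, with an unadjusted p of 0.00501 and 0.0115 by edgeR. Pdcd5, a gene linked to programmed cell death, was at 20.1, 21.3, 19.9, 20.8 and 19.9 CPM in FGF1 mice and 23.6, 24.9, 24.2, 27.1 and 22.7 CPM in vehicle mice, a log2 fold change of -0.26 ± 0.08. The FGF1 mice were close to each other, and the gap between the groups was narrower than the range of the vehicle mice. The transcript 0610010K14Rik (-0.78 ± 0.23) did not overlap either, but its exons overlap those of Gm21988 on the same strand, so that their reads could be shared.

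Further genes that were lower in every FGF1 mouse included Star, which moves cholesterol into mitochondria for steroid synthesis, and Shh, the secreted morphogen Sonic hedgehog. Star was at 1.76, 1.46, 1.82, 2.03 and 2.1 CPM in FGF1 mice and 2.13, 2.76, 2.76, 2.52 and 2.51 CPM in vehicle mice, with FGF1 mouse 11 next to vehicle mouse 12. Shh was at 5.43, 5.17, 4.89, 4.57 and 3.35 CPM against 5.45, 6.28, 5.69, 5.95 and 5.65 CPM, where FGF1 mouse 7 (5.43) and vehicle mouse 12 (5.45) were nearly level. Gm960, Klhl33 and Ndufaf6 had log2 fold changes of -0.35, -0.25 and -0.22. A2ml1, a protease inhibitor of the alpha-2-macroglobulin family, was among the lowest p-values (0.00683 by edgeR, log2 fold change -0.41 ± 0.13) with FGF1 mouse 8 inside the range of the vehicle mice. Tmem202 and Lrriq3, ranked among the lower genes without mouse 11, were then at -0.56 and -0.82. Exons of Tmem202 overlap those of Hexa on the other strand, so their reads are told apart only where the counting used strand.

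Of the genes higher in FGF1 mice, Il6ra, the receptor subunit that binds interleukin-6 (GRCm38 chr3:89864059-89913196, minus strand), was the largest without overlap at a mean of 5 CPM or more. It was at 6.83, 7.26, 7.28, 6.89 and 8.59 CPM in FGF1 mice and 4.76, 6.0, 5.99, 5.62 and 5.79 CPM in vehicle mice. It differed by 0.39 ± 0.13 on the log2 scale (unadjusted p 0.00985 by edgeR) and 0.33 ± 0.13 without mouse 11, which held the highest level. Siglech, a lectin receptor of microglia, was at 17, 19.2, 17.1, 19.1 and 18.9 CPM against 16.9, 16.9, 15.8, 15.9 and 12.5 CPM. FGF1 mouse 7 and vehicle mice 12 and 13 were nearly level, and vehicle mouse 16 was lowest. Its log2 fold change was 0.22 ± 0.11, and edgeR gave an unadjusted p of 0.0553.

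Of the 16 higher genes without overlap, the others named by their size at that mean level were Jcad, an endothelial junction protein, Lrrc28 and Fam171a1, with log2 fold changes of 0.34, 0.24 and 0.22. Jcad was at 116 CPM in FGF1 mouse 11 and at 71.2 to 79.6 CPM in the other FGF1 mice, against 53.6 to 70.1 CPM in vehicle mice, and its fold change without mouse 11 was 0.20 (p 0.0657 by edgeR). Hcls1, an actin regulator of blood and immune cells, and Gypc, glycophorin C of red blood cells, did not overlap once mouse 11 was left out, at 0.53 ± 0.17 and 0.62 ± 0.21. Sp8, a transcription factor of interneuron lineages, was at 3.26, 2.92, 3.31, 4.29 and 2.78 CPM in FGF1 mice and 2.19, 1.52, 3.02, 2.18 and 1.28 CPM in vehicle mice, and its log2 fold change was 0.70 with all mice and 0.76 without mouse 11. Utp14b shares exon sequence on the same strand with Acsl3, so its value of 0.35 without mouse 11 may include reads of that gene.

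**Figure D2:**
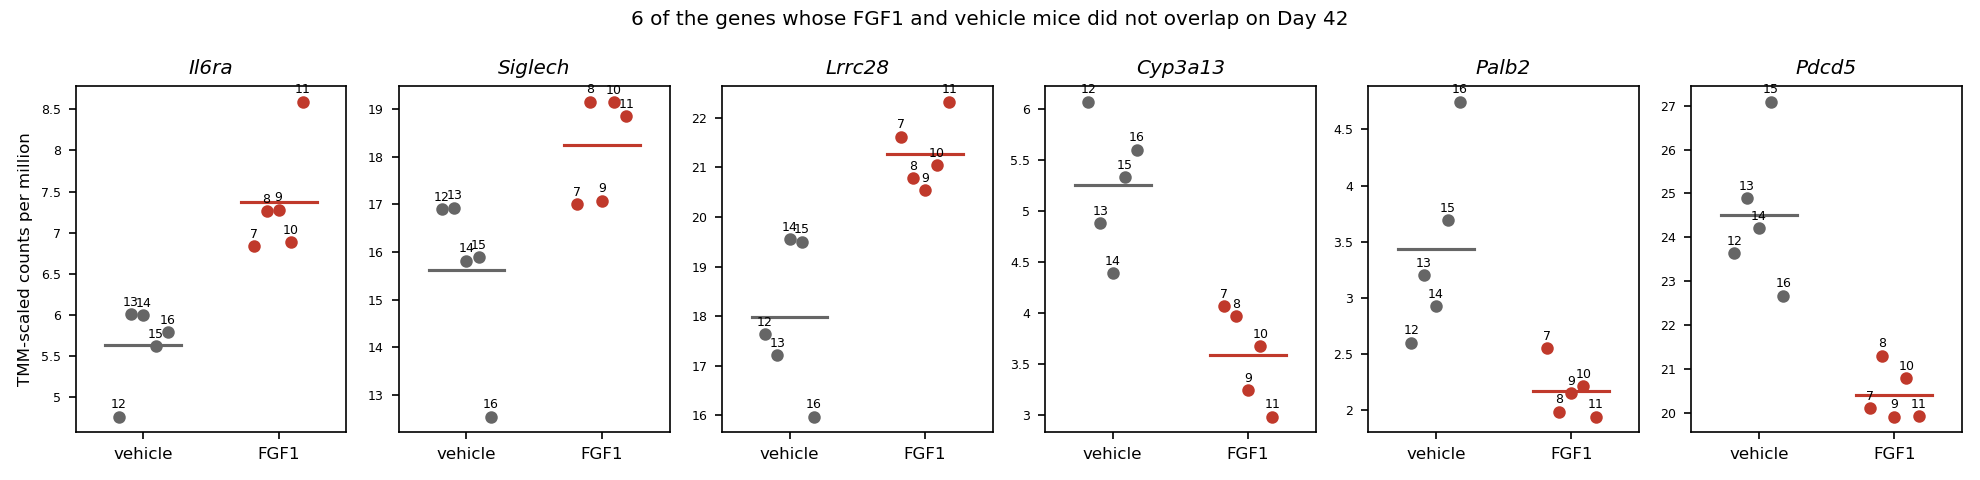
Levels (TMM-scaled CPM, linear axes that do not start at 0) of 6 genes in each vehicle mouse (grey, 12 to 16) and FGF1 mouse (red, 7 to 11); lines are group means. Every FGF1 mouse is above every vehicle mouse for Il6ra, Siglech and Lrrc28 and below for Cyp3a13, Palb2 and Pdcd5.

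Among the neuropeptide genes of the arcuate nucleus, Agrp was the one with an unadjusted p-value under 0.05. Agrp encodes the endogenous antagonist of melanocortin receptors that drives feeding. It was at 4.62, 4.86, 9.27, 2.98 and 3.2 CPM in FGF1 mice 7 to 11 and at 11.9, 3.36, 7.25, 9.2 and 31.8 CPM in vehicle mice 12 to 16, with means of 4.99 ± 2.54 CPM against 12.7 ± 11.1 CPM (SD, n = 5 in each group). The groups overlapped: vehicle mouse 13 lay below 3 of the FGF1 mice, FGF1 mouse 9 was level with vehicle mouse 15, and vehicle mouse 16 stood far above the rest.

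Agrp had a log2 fold change of -1.34 ± 0.52, with an unadjusted p of 0.0238 by edgeR and 0.111 by the exact permutation test. Without FGF1 mouse 11 it was -1.22 ± 0.56 (p 0.053 by edgeR). Without vehicle mouse 16 it was -0.66 (p 0.115 by edgeR), and without both mice -0.55 (p 0.192 by edgeR). In the fit of all 47 libraries, which estimates the spread from every group, it was -1.34 ± 0.37, with an unadjusted p of 0.000678 and an adjusted p of 0.337 by edgeR. Since the groups of Day 5 varied less than those of Day 42, the p-values of this fit may be too small. The direction was lower in each of these fits, and the adjusted p-value of Agrp was not under 0.337 in any alternative. Vehicle mouse 16 is the mouse in which medial habenula genes and glucocorticoid targets were also highest, and their part in its Agrp level was not tested. In the annotation the gene models of Agrp and Ctcf, which run on opposite strands, share exonic bases, and their reads are told apart only where the counting used strand. The Agrp model also shares exonic bases with Gm5914 on the same strand, which no strand setting can separate.

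Npy, made by the same neurons, was at 23, 20.7, 34, 20.3 and 41.9 CPM in FGF1 mice and 42.6, 20.9, 31, 30.9 and 80.2 CPM in vehicle mice. Vehicle mouse 16 was again the highest and the other 9 mice ran from 20.3 to 42.6 CPM in both groups. The log2 fold change was -0.56 ± 0.33 with all mice, -0.74 ± 0.34 without FGF1 mouse 11 and -0.17 without vehicle mouse 16. In the fit of all 47 libraries, with the same limit on its spread, it was -0.57 ± 0.26 (unadjusted p 0.0343, adjusted p 0.859 by edgeR). Cartpt, the CART peptide found with Pomc, had a log2 fold change of -0.63 ± 0.31, and vehicle mice 12, 14 and 15 lay within the FGF1 range.

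Pomc, the melanocortin precursor, spread widely within each group, at 31.8, 3.76, 5.44, 8.87 and 1.62 CPM in FGF1 mice and 4.96, 3.96, 31.1, 9.78 and 4.85 CPM in vehicle mice. FGF1 mouse 7 and vehicle mouse 14 were alike at above 31 CPM, and both were the highest of their group for the pituitary hormone subunit Cga (16.7 and 6.71 CPM). Summed over the 3 pituitary genes tested, FGF1 mouse 7 was again highest at 29.7 CPM. Among the vehicle mice, however, mouse 12 (15.8 CPM) exceeded mouse 14 (14.6 CPM). The log2 fold change of Pomc was -0.07 with a 95% interval from -1.71 to 1.57, so even changes of 2-fold in either direction could not be detected. It was -1.12 without FGF1 mouse 7 and 0.82 without vehicle mouse 14. Whether pituitary or median eminence tissue entered these punches was not tested.

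Of all 15 arcuate neuron genes, 13 had negative fold changes with all mice, and the median was -0.17, beside -0.01 over all genes tested. Without mouse 11 the median was -0.08, and 1 of 15 genes (Agrp) was lower at an unadjusted p-value under 0.05 with all mice (0.393% of all genes) and 0 without mouse 11 (0.378%). The leptin receptor Lepr (-0.07), the melanocortin receptor Mc3r (-0.24) and Tbx3 (-0.33) did not pass. The other hypothalamic lists had medians near 0: ventromedial neurons -0.07, lateral hypothalamic neurons -0.06, and paraventricular, supraoptic and suprachiasmatic neurons -0.08, with 0 members at that p-value. Their medians without mouse 11 were 0.01, 0.01 and 0.11, so that each changed sign.

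**Figure D3:**
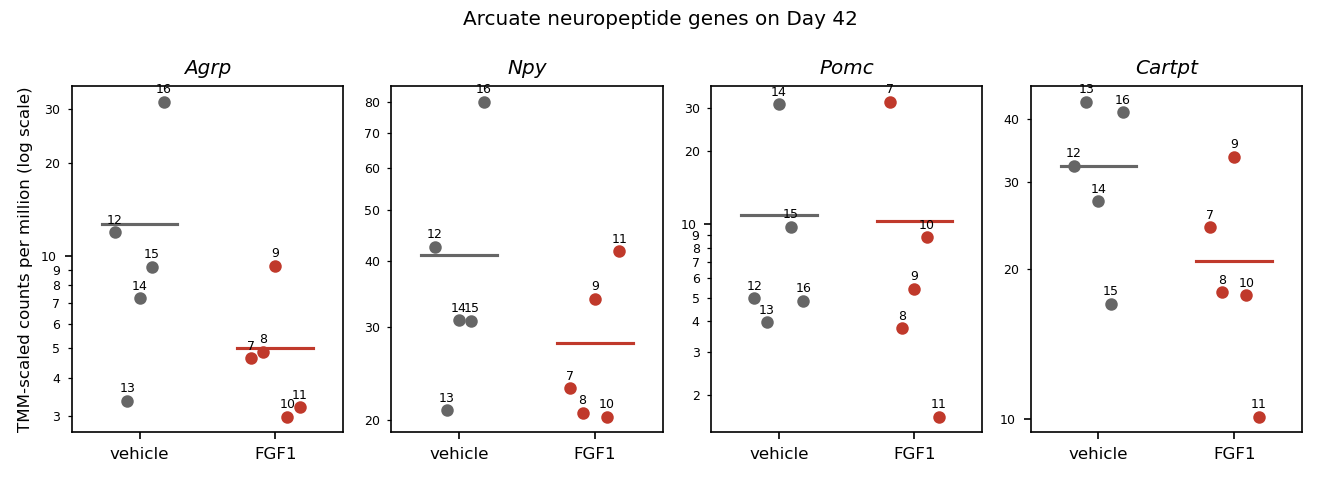
Levels (TMM-scaled CPM, log axes) of 4 arcuate neuropeptide genes in each vehicle mouse (grey) and FGF1 mouse (red) of Day 42; numbers name the mice and lines are group means. Vehicle mouse 16 is the highest for Agrp and Npy, and 1 mouse of each group (7 and 14) is far above the others for Pomc.

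Lists of forebrain, striatal and choroid plexus genes had positive medians with all mice that were smaller or negative without FGF1 mouse 11. Mef2c, a transcription factor of maturing neurons, was at 40.5, 78.7, 62.3, 112 and 381 CPM in FGF1 mice and 61.7, 49, 49.5, 89.1 and 56.9 CPM in vehicle mice. FGF1 mouse 11 was at more than 3 times any other mouse, and the other 9 mice overlapped from 40.5 to 112 CPM. The log2 fold change was 1.14 ± 0.51 (unadjusted p 0.0457 by edgeR, exact p 0.262) with all mice and 0.27 ± 0.27 (p 0.342 by edgeR) without mouse 11.

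The forebrain excitatory neuron list had the same pattern as Mef2c. Of its 18 genes, 15 had positive fold changes with a median of 0.69, and 3 were higher at an unadjusted p-value under 0.05 (0.628% of all genes), namely Tbr1 (1.61), Lamp5 (1.2) and Arpp21 (0.74). Without mouse 11 the median was 0.09 and 1 gene was below that p-value (0.178% of all genes), Arpp21, whose log2 fold change was then 0.31 ± 0.11. Arpp21, a regulator of RNA in forebrain neurons, was at 78.5, 101, 109.5, 106 and 274 CPM in FGF1 mice and 82.9, 74.1, 75, 91.4 and 76 CPM in vehicle mice, so that FGF1 mouse 7 was within the vehicle range. Camk2a, the alpha subunit of the kinase CaMKII, was at 1568 CPM in FGF1 mouse 11 and between 402 and 552 CPM in all others.

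Of the 14 striatal projection neuron genes, 7 were higher at an unadjusted p-value under 0.05 with all mice (0.628% of all genes) and 2 without mouse 11 (0.178%), and the median log2 fold change was 0.37 and 0.24. Adora2a, an adenosine receptor of indirect pathway neurons, was at 0.929, 1.51, 3.92, 0.899 and 8.75 CPM in FGF1 mice and 0.231, 0.881, 0.395, 0.832 and 1.07 CPM in vehicle mice. FGF1 mice 9 and 11 were high and FGF1 mice 7 and 10 lay within the vehicle range. Its log2 fold change was 2.22 ± 0.67 (unadjusted p 0.00616 by edgeR, exact p 0.0397), and without mouse 11 it was 1.45 ± 0.53 (exact p 0.0794).

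Drd1, the dopamine D1 receptor of direct pathway neurons, was at 6.07, 7.94, 15.7, 10.9 and 30.8 CPM in FGF1 mice and 4.99, 6.69, 8.43, 6.86 and 5.79 CPM in vehicle mice. Again mice 9 and 11 stood highest, and the fold change was 1.11 ± 0.37 with all mice and 0.64 ± 0.26 without mouse 11. Other members below that p-value with all mice included Ppp1r1b, Pde10a, Bcl11b and Rarb, at 0.39 to 1.27. Ankrd33b had a log2 fold change of 2.00 with all mice and 0.60 without mouse 11. The striatal level of FGF1 mouse 9 stood 0.65 above the median library, so that leaving out mouse 11 does not leave the FGF1 group without striatal transcripts, and the part of the dissection in these values was not tested.

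The choroid plexus list had the largest median of all 39 lists at 0.96 and lost it without mouse 11, at -0.08. Enpp2, the secreted enzyme autotaxin, was at 1676 CPM in FGF1 mouse 11, at 261 to 357 CPM in the other FGF1 mice and at 207 to 337 CPM in vehicle mice. With all mice 3 of 12 genes were higher at an unadjusted p-value under 0.05, beside 0.628% of all genes, and without mouse 11 there were 0. The klotho gene Kl, a coreceptor for endocrine FGFs, followed the same pattern, at 1.37 with all mice and -0.07 without mouse 11. The 26 genes of the postsynaptic scaffold and plasticity kinases had a median of 0.28 and 0.08 without mouse 11, with 0 members at that p-value in either fit.

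Immediate early genes, which neurons switch on within minutes of activity, had a median of -0.02 and, with all mice, 2 members that were higher at an unadjusted p-value under 0.05 (0.628% of all genes), Egr3 (2.01) and Nr4a3 (0.84). Egr3 was at 51.8 CPM in FGF1 mouse 11 and at 1.64 to 7.69 CPM in the other FGF1 mice, against 2.91 to 4.32 CPM in vehicle mice. Without mouse 11 the list median was -0.15, with 0 higher and 2 lower members (0.178% and 0.378% of all genes). Nr4a2, a member of this list and of the dopamine neuron list, was 1 of these 2 (-0.69).

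**Figure D4:**
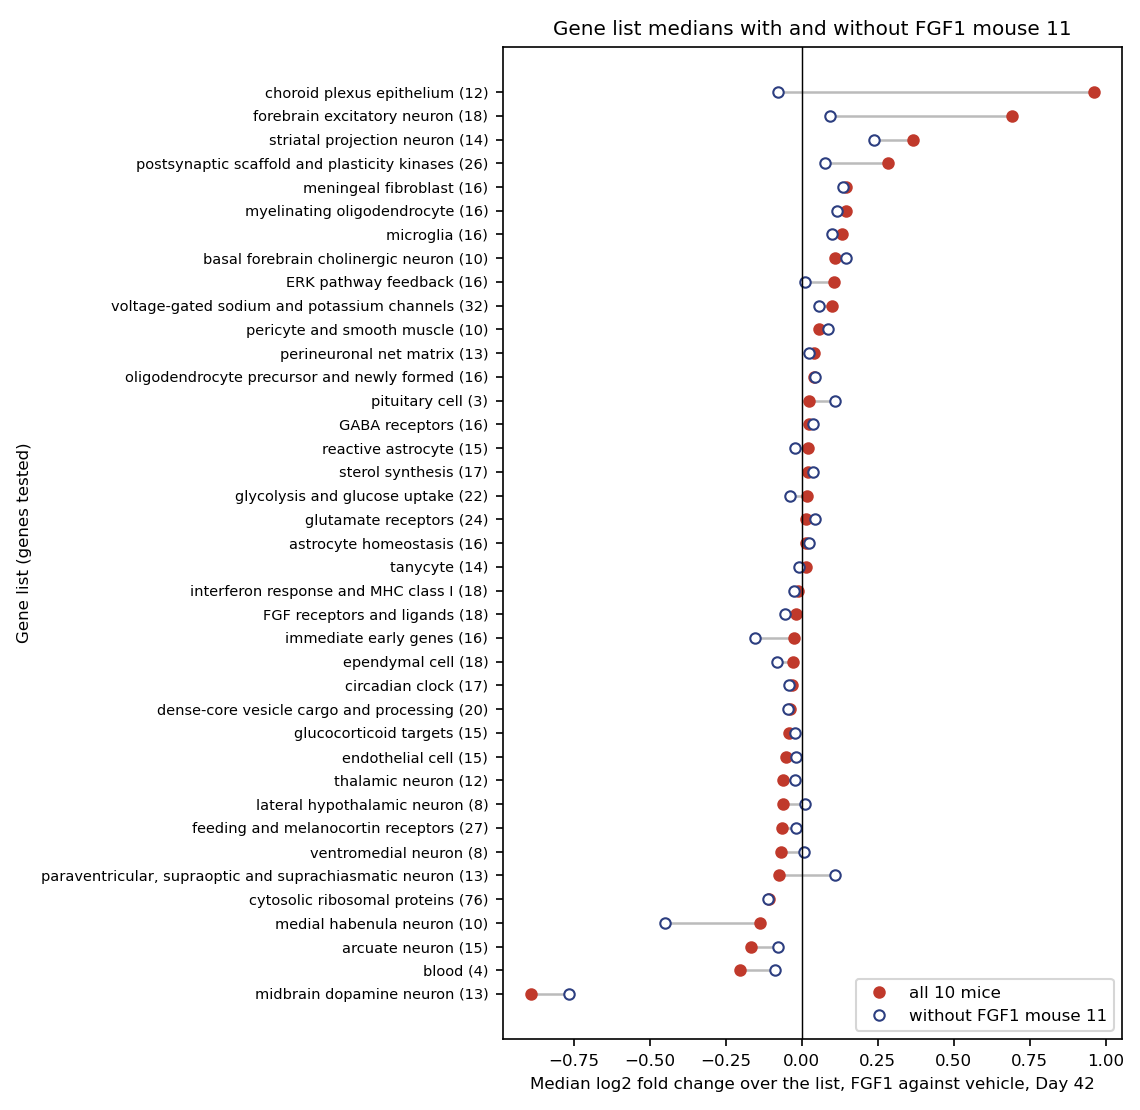
Median log2 fold change (FGF1 against vehicle, Day 42) of 39 gene lists with all 10 mice (red) and without FGF1 mouse 11 (open blue); numbers in brackets are genes tested. The choroid plexus list moves from 0.96 to -0.08 and the forebrain list from 0.69 to 0.09, while the astrocyte, oligodendrocyte and microglia lists keep medians between -0.02 and 0.14.

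Glial genes were close between the groups. Gfap, the astrocyte intermediate filament, was at 171, 162, 215, 139 and 210.2 CPM in FGF1 mice and 135, 153, 348, 153 and 183 CPM in vehicle mice. The groups overlapped fully and vehicle mouse 14 was the highest of all. The log2 fold change was -0.12 with a 95% interval from -0.64 to 0.41, and Vim (0.06, from -0.35 to 0.46), S100a10 (-0.05, from -0.32 to 0.22) and Aqp4, the astrocyte water channel (0.03, from -0.33 to 0.40), had intervals around 0 as well.

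Of the 15 reactive astrocyte genes tested, 0 had an unadjusted p-value under 0.05 in either fit, and the median was 0.02 with all mice and -0.02 without mouse 11. The 16 astrocyte homeostasis genes had a median of 0.02 in both fits, and the 14 tanycyte genes 0.01 and -0.01. Among the tanycyte genes, Crym reached 1.18 with all mice and 0.11 without mouse 11.

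In the oligodendrocyte lineage, Gpr17, a receptor of committed precursors, was at 42.5, 43, 62.7, 40.1 and 44.1 CPM in FGF1 mice and 38.7, 48.6, 62, 39.3 and 25.7 CPM in vehicle mice. FGF1 mouse 9 and vehicle mouse 14 were level and highest, and vehicle mouse 16 was lowest. Its log2 fold change was 0.12 ± 0.21, and that of Bmp4, a secreted signal of the same cells, was 0.38 ± 0.27 (p 0.189 by edgeR). The 16 precursor and newly formed oligodendrocyte genes had a median of 0.04 in both fits.

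Of the 16 myelin genes, 15 had positive fold changes, with a median of 0.14 with all mice and 0.12 without mouse 11, and 0 had an unadjusted p-value under 0.05. Fa2h, the hydroxylase that makes the 2-hydroxylated sphingolipids of myelin, was not on the list and was among the lowest p-values of the higher genes. It was at 40, 48.2, 36.3, 38.3 and 54.3 CPM against 27.5, 38.1, 30.1, 37.2 and 27.6 CPM, a log2 fold change of 0.43 ± 0.14 (p 0.00908 by edgeR) and 0.35 ± 0.13 without mouse 11. The myelin list was below the median library in vehicle mice 12, 14 and 16 (-0.25, -0.21 and -0.31) and in FGF1 mouse 9 (-0.28), and these were also the lowest mice of their groups for Fa2h. The part of myelin content in the Fa2h difference was not tested.

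Microglia genes were positive in 14 of 16 cases with a median of 0.13, and 0.10 without mouse 11, and 1 of 16 (Siglech, described above) had no overlap between the groups, beside 0.114% of all genes. Of the 16, 0 had an unadjusted p-value under 0.05 by edgeR. Csf1r, the receptor that microglia need to survive, was at 52.0 to 65.7 CPM in FGF1 mice and 38.4 to 59.1 CPM in vehicle mice. Endothelial, pericyte and smooth muscle, and ependymal lists had medians of -0.05, 0.06 and -0.03, and meningeal fibroblast genes 0.15.

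Dopamine neuron genes varied between mice of the same group. This list was added after the libraries had been seen, so its direction is a description. All 13 genes had negative fold changes, with a median of -0.89 and -0.77 without mouse 11. Without vehicle mouse 12, the highest mouse, the median was -0.44. Of them 3 had an unadjusted p-value under 0.05 by edgeR (0.393% of all genes were lower at that p-value), namely Foxa1 (-0.96), Cnpy1 (-2.04) and Th (-1.02). Th, the rate-limiting enzyme of catecholamine synthesis, was at 29.7, 24, 22.4, 10.6 and 10.3 CPM in FGF1 mice and 61, 54.4, 16.8, 17.7 and 47.9 CPM in vehicle mice. Vehicle mice 12, 13 and 16 were high, and vehicle mice 14 and 15 lay within the FGF1 range.

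Foxa1, a transcription factor of midbrain dopamine neurons, was at 3.57, 1.78, 1.6, 1.57 and 2.04 CPM in FGF1 mice and 7.02, 4.36, 3.04, 2.91 and 3.39 CPM in vehicle mice, with FGF1 mouse 7 inside the vehicle range. The 2 mice highest for Foxa1 were vehicle mice 12 and 13, the mice with the highest summed level of the dopamine list, 998 and 650.4 CPM, and the part of tissue content in this difference was not tested. Thalamic neuron genes had a median of -0.06 and 0 members at that p-value. The 10 medial habenula genes had a median of -0.14, and -0.45 without mouse 11, and 1 was lower at that p-value (0.393% of all genes), the transcription factor Irx3 (-0.66 ± 0.23). The habenula list was also added after the libraries had been seen. It stood highest in FGF1 mouse 11 (0.94 above the median library) and vehicle mouse 16 (1.17). Leaving out mouse 11 alone therefore keeps the high vehicle mouse.

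Receptors, signalling and clock genes gave few members below an unadjusted p-value of 0.05, and each count is read beside the shares of 0.628% higher and 0.393% lower over all genes. Of 27 feeding and melanocortin receptors, 1 was lower, Gipr, the receptor for the incretin GIP. Gipr was at 2.45, 3.18, 2.98, 3.29 and 3.93 CPM in FGF1 mice and 4.5, 3.44, 3.34, 4.16 and 7.41 CPM in vehicle mice, where FGF1 mouse 11 (3.93) exceeded 2 vehicle mice and vehicle mouse 16 was highest. Its log2 fold change was -0.54 ± 0.23 with all mice and -0.62 ± 0.25 without mouse 11. Mc4r (-0.14), Glp1r (-0.31) and Ghsr (-0.50) did not pass.

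Of 17 circadian clock genes, 1 was lower, the repressor Cry1, at 26.5, 28.1, 24.2, 25 and 23.1 CPM in FGF1 mice and 30.8, 31.5, 26.6, 28.6 and 36.5 CPM in vehicle mice. Its log2 fold change was -0.28 ± 0.10 (unadjusted p 0.0175 by edgeR, exact p 0.0159). FGF1 mouse 8 alone lay within the vehicle range, above vehicle mouse 14. Of 24 glutamate receptors, 1 was higher, Grm3 (0.45 ± 0.18), a metabotropic receptor found on astrocytes and neurons, and without mouse 11 there were 0 (Grm3 at 0.36, unadjusted p 0.0685 by edgeR).

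In the FGF pathway itself, 0 of 18 receptor, ligand and adaptor genes and 0 of 16 ERK feedback genes passed with all mice. Without mouse 11 the counts were 1 and 0, the 1 being Fgfbp3, a carrier protein of secreted FGFs, at -0.39 (unadjusted p 0.0199 by edgeR, beside 0.378% of all genes lower), named after its values were seen. The medians of these lists were -0.02 and 0.11, and -0.06 and 0.01 without mouse 11. Fgfr1 (-0.04), Fgfr2 (0.08), Fgfr3 (-0.16) and the mouse's own Fgf1 (-0.03) were near 0, while the ERK phosphatase genes Dusp5 and Dusp6 went from 0.48 and 0.23 to 0.12 and -0.04 without mouse 11. Spry4, an inhibitor of receptor signalling, was at -0.16. Sterol synthesis, glycolysis, interferon and MHC class I, and glucocorticoid target lists had medians between -0.04 and 0.02 and 0 members at that p-value.

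The FGF1 effect of Day 42 was then set against those of Days 5 and 1 by a test of the difference in a fit of all 47 libraries, in which the non-diabetic vehicle group served as control on Day 5. These days share no mouse with Day 42. The fit shares its spread over all days, and the groups of Day 42 varied more than those of Day 5. Its p-values may therefore be too small, and its counts of genes too large, for differences that involve Day 42. Day and library preparation cannot be told apart, but each effect is taken within a day. For Day 5, 101 of 14221 genes differed, 33 with a higher effect on Day 42 (0.232%) and 68 with a lower effect (0.478%). Without FGF1 mouse 11 of Day 42 there were 57, of which 7 were higher (0.0492%) and 50 lower (0.352%). Against the Day 5 vehicle group labelled diabetic there were 127, of which 25 were higher and 102 lower. For Day 1, 937 genes were higher (6.59%) and 1395 lower (9.81%), and without mouse 11 these were 891 (6.27%) and 1440 (10.1%).

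Of the 15 reactive astrocyte genes, 6 had a smaller effect on Day 42 than on Day 5, beside 0.478% of all genes. Against Day 1 there were 14, beside 9.81% of all genes. Gfap went from log2 fold changes of 2.81 on Day 1 and 1.29 on Day 5 to -0.13 on Day 42 in this fit. The difference from Day 5 was -1.41 ± 0.22 (adjusted p 0.00015 by edgeR) and that from Day 1 was -2.93 (adjusted p 5.48e-13 by edgeR). Osmr, Serpina3n, Clu, Cd44 and Vim were the other genes smaller than on Day 5.

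Of the 16 precursor and newly formed oligodendrocyte genes, 7 had a smaller effect than on Day 5, beside 0.478% of all genes. These were Gpr17, Bmp4, Enpp6, Neu4, Fyn, Itpr2 and Nkx2-2. Gpr17 went from 1.80 to 0.11 in this fit, a difference of -1.69 ± 0.33 (adjusted p 0.00343 by edgeR). Against Day 1, on which its fold change was -1.07, the effect on Day 42 was higher by 1.18 (adjusted p 0.00935 by edgeR). Of the ERK feedback genes, 12 of 16 had a smaller effect on Day 42 than on Day 1, beside 9.81% of all genes. Of these 16, 0 differed from Day 5, beside 0.232% of all genes with a higher and 0.478% with a lower effect. Agrp differed by -1.21 ± 0.48 from Day 5 (adjusted p 0.315 by edgeR) and by -1.25 from Day 1 (adjusted p 0.0536 by edgeR), and neither passed.

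Among the genes tested on Day 42, 183 had been higher DEGs on Day 5 (1.31%) and 32 lower DEGs (0.228%). The 183 had a median of 0.67 on Day 5 and 0.02 on Day 42, where 104 of them were positive and 2 had an unadjusted p-value under 0.05 in that direction, which is near the 0.628% of all genes tested. The 32 had medians of -0.69 and -0.12, the second being -0.05 without mouse 11, 23 were negative on Day 42 and 2 had such a p-value, beside 0.393% of all genes tested. The difference between the days was past the thresholds for 61 of the 183 and 7 of the 32, and 0 had a larger effect on Day 42. These genes were chosen by their Day 5 values, which enter that difference. The 4 genes with an unadjusted p-value under 0.05 in the direction of Day 5 were Fa2h and Padi2, higher, and Gipr and Ovgp1, lower, named after their values were seen. Fa2h was at 0.50 on Day 5 and 0.43 on Day 42, and Gipr at -0.93 and -0.54. Padi2, an arginine deiminase of oligodendrocytes, was at 0.55 and 0.37, and at 0.21 without mouse 11. For Day 1, the 1611 higher DEGs (11.5%) had medians of 0.80 and 0.02, and the 1117 lower DEGs (7.98%) medians of -0.74 and -0.03.

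**Figure D5:**
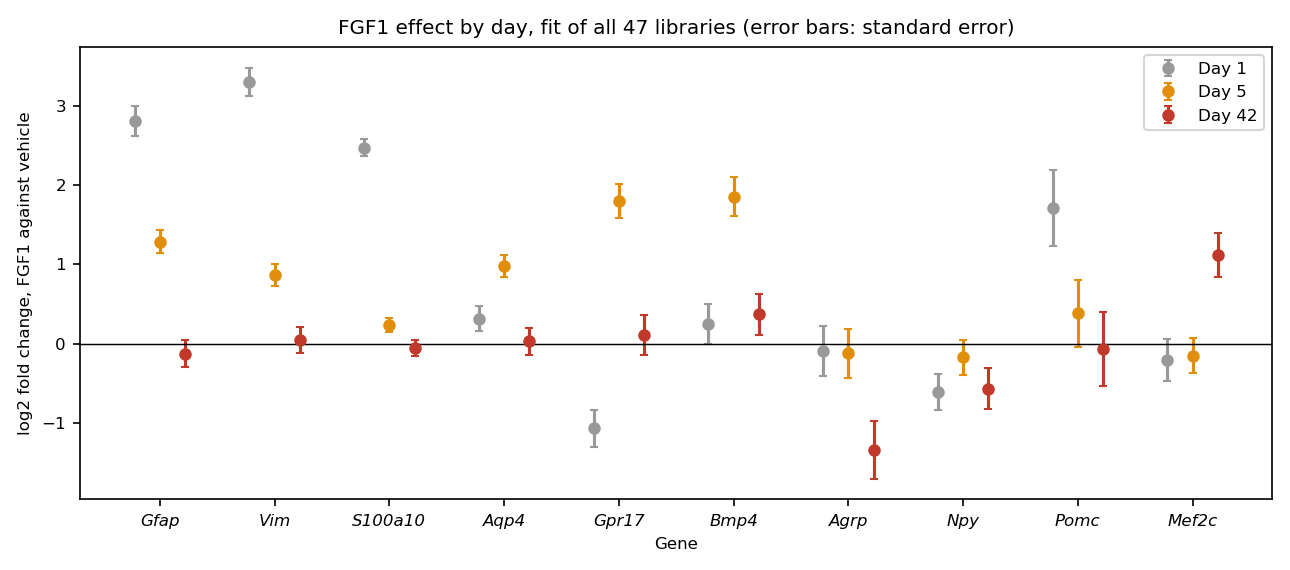
Log2 fold change of FGF1 against vehicle for 10 genes on Day 1 (grey), Day 5 (orange) and Day 42 (red). Values are from the fit of all 47 libraries, and bars are standard errors from a spread shared over all days. The 6 glial genes (Gfap to Bmp4) lie between -0.13 and 0.37 on Day 42, Agrp lies lowest at -1.34, and the 1.12 of Mef2c rests on FGF1 mouse 11.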

How the data were processed

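Hypothalamic RNA of single mice was sequenced from stranded mRNA libraries. The deposited table holds raw counts per gene, made by the authors from reads aligned to the mouse genome. The submitters' processing notes name STAR, DESeq2 and the build GRCh38, which is the name of a human assembly. The counting program and its strand setting are not given in the sources used here. Several named genes, among them Tmem202 (with Hexa), Palb2 (with Gm16326) and Gpr17 (with Lims2), share exonic bases with a gene on the other strand. Their values carry the same limit as that of Agrp with Ctcf. Per the table, 47 libraries and 14221 genes were given, 0 value columns were left unused, and 0 mitochondrially encoded genes were present. The sample annotation table was used only for the preparation code, 1 per day, so that day and preparation cannot be told apart.

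Groups came from the labels of each sample. Genes were filtered with filterByExpr on the 10 Day 42 libraries (14005 genes tested), scaled by TMM and fitted with the quasi-likelihood test of edgeR 4.0.16 (R 4.3.3) with 1 mean per group and Benjamini-Hochberg adjustment. The thresholds (adjusted p-value 0.05, absolute log2 fold change 0.5) follow the study. Effects of days were compared in 1 fit of all 47 libraries. Single values were compared by two-sided exact permutation tests (scipy 1.17.1) of log2(CPM + 0.5). Library totals of 19416026 counts or more set the counting error, which with the spread between mice sets the precision. The procedure was tested on simulated data with 200 changed genes. Alternatives were size factors of DESeq2 1.42.0, DESeq2 itself, 2 other filters, quality weights of limma 3.58.1, quantile normalization, all 47 libraries, and leaving out each library. Removing the GC trend and leaving out FGF1 mouse 11 with vehicle mouse 12 were chosen after seeing the data.

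Genes were named by rule: the 10 genes the study shows for bulk data; the 6 with the smallest p-value in each direction at a mean of at least 1 CPM, with and without FGF1 mouse 11; the 5 largest fold changes in each direction without overlap at a mean of at least 5 CPM; and in each list the members with an unadjusted p-value under 0.05 and the most abundant. Some genes that the rule names are not reported here. Others serve as examples of their list and were named with their values known. The members and lists were chosen with earlier results of these data known, and the dopamine neuron, basal forebrain cholinergic, habenula and ribosomal protein lists were added after the libraries were seen. Coordinates are those of GENCODE M21 (GRCm38), in which 14180 genes were found by name.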

Additional observations from a re-analysis of the deposited data

Results flagged for a closer look

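Within each group of 5 mice, the gap between an extreme mouse and its neighbour was divided by the range of the group and compared with Dixon's critical value of 0.710. Of 152 groups of values, 19 exceeded it. The values include lists added after the libraries were seen and genes chosen by their Day 42 values, so this count cannot be set against chance. FGF1 mouse 11 had been singled out beforehand for its cortical and choroid plexus transcripts, so that its values for those lists are a description. It was high for forebrain excitatory neuron genes (0.719), choroid plexus genes (0.889), postsynaptic scaffold genes (0.717), immediate early genes (0.802) and medial habenula genes (0.883). This mouse was also high for Il6ra (0.726), Arpp21 (0.733) and Jcad (0.774) and low for Gypc (0.737). Vehicle mouse 16 was low for endothelial genes (0.803), GABA receptors (0.723), Jcad (0.800) and Siglech (0.773). The endothelial list was only 0.12 log2 units below the median library in this mouse. It was high for glucocorticoid targets (0.719) and habenula genes (0.774). FGF1 mouse 7 was high for pituitary genes (0.791), FGF1 mouse 9 was low for Aqp4 (0.764) and high for Gpr17 (0.790), and vehicle mouse 12 was low for Il6ra (0.711).

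By the test of the difference in the fit of all 47 libraries, the log2 effect of FGF1 on Day 42 minus that on Day 5 was -1.41 for Gfap, -0.82 for Vim, -0.95 for Aqp4, -1.69 for Gpr17 and -1.48 for Bmp4. It was 3.52 for Adora2a, 1.97 for Drd1, 1.04 for Sp8, 2.62 for Ankrd33b and 1.30 for Arpp21. Of these, Adora2a, Drd1, Ankrd33b and Arpp21 were highest in FGF1 mouse 11. Adora2a, Drd1, Sp8, Ankrd33b and Arpp21 were chosen by their Day 42 p-values, and the same Day 42 levels enter this difference. For these genes the difference is therefore a description and not a separate test. The effect on Day 42 minus that on Day 1 was -2.93 for Gfap, -3.26 for Vim, -2.53 for S100a10, -1.78 for Pomc, -1.07 for Il6ra, -0.72 for Palb2, -1.13 for 0610010K14Rik, -0.71 for Hcls1, -0.93 for Tmem202, -1.96 for Star and -1.14 for Shh. It was 1.18 for Gpr17, 1.33 for Mef2c, 2.28 for Adora2a, 2.05 for Ankrd33b, 1.32 for Cyp3a13, 0.95 for Utp14b and 0.97 for Arpp21. Of these, Mef2c, Adora2a, Ankrd33b and Arpp21 were highest in FGF1 mouse 11, and without it their Day 42 log2 fold changes were 0.27, 1.45, 0.60 and 0.31. Il6ra, Palb2, 0610010K14Rik, Hcls1, Tmem202, Star, Shh, Adora2a, Ankrd33b, Cyp3a13, Utp14b and Arpp21 were likewise chosen by their Day 42 values. Their differences from Day 1 carry the same limit.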

How the results depend on the processing

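The count of DEGs on Day 42 was 0 in edgeR under every alternative run, and in DESeq2. The genes at an unadjusted p-value under 0.05 numbered 143, and 78 to 292 when 1 mouse was left out (78 without FGF1 mouse 11, 292 without vehicle mouse 16, 254 without FGF1 mouse 7 and 232 without FGF1 mouse 9). They numbered 381 with quality weights, 311 with the GC trend removed, 215 in DESeq2, 775 in the fit of all 47 libraries and 61 without FGF1 mouse 11 and vehicle mouse 12. The genes whose effect differed from Day 5 numbered 101, 57 without FGF1 mouse 11 and 127 against the Day 5 vehicle group labelled diabetic. Genes with a fold change near 0 changed sign. With 1 mouse left out, Gfap ran from -0.22 to 0.20 (without vehicle mouse 14), Vim from -0.036 to 0.23 (lowest without FGF1 mouse 11; -0.0026 and -0.029 without vehicle mice 12 and 13) and S100a10 from -0.13 to 0.023 (highest without vehicle mouse 16). Aqp4 ran from -0.089 (without vehicle mouse 16; -0.012 without vehicle mouse 13) to 0.15, and Gpr17 from -0.019 (without vehicle mouse 16; -0.0084 without FGF1 mouse 9) to 0.29. Pomc ran from -1.12 to 0.82, with 0.13, 0.099 and 0.20 without FGF1 mice 8, 9 and 11. Without FGF1 mouse 11 and vehicle mouse 16, S100a10 was 0.0095, Aqp4 -0.10, Gpr17 -0.00029 and Pomc 0.0074, and without FGF1 mouse 11 and vehicle mouse 12, Vim was -0.096 and Pomc 0.011. With quality weights Aqp4 was -0.025 and Pomc 0.094. The causes were not tested. The other 718 values kept their direction, counted over the 37 genes named by the study, by rank or by lack of overlap. Genes named only as members of a list are not in that count, and some of them changed sign, such as Kl and Dusp6 without FGF1 mouse 11. Of the list medians, 9 moved by more than the spread between mice and 771 did not. No paired analysis was possible because the titles number the mice 7 to 16 and no number is shared between groups. The spread between mice and, for genes of few counts, the depth limited what could be detected.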

Other observations

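Cytosolic ribosomal protein genes, a list added after the data were seen, had negative fold changes in 73 of 76 cases, with a median of -0.11 both with and without FGF1 mouse 11, beside -0.01 over all genes tested. Vehicle mouse 16 was the highest for 50 of the 76 genes and in their sum (10099 CPM, against 7237 to 9032 CPM in the others), and without it the median was -0.02. Of the 76 genes, 0 had an unadjusted p-value under 0.05 by edgeR. Ion channel genes had the opposite sign in 27 of 32 cases, with a median of 0.10 that was 0.06 without FGF1 mouse 11, 0.04 without vehicle mouse 16 and -0.01 without both. Their sum was lowest in vehicle mouse 16 (3122 CPM) and highest in FGF1 mouse 11 (4877 CPM). The 10 basal forebrain cholinergic neuron genes had a median of 0.11 with all mice and 0.15 without mouse 11. These lists are described by their counts, and their genes are not independent of each other.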
